A study of Homo sapiens with 4 samples.

Results

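LINC01641, LINC00691 and ENSG00000265091 are 3 long non-coding RNA (lncRNA) genes that stood out in HUH7 cells because each had a transcript above 1000 FPKM (fragments scaled by transcript length and by library depth), a level that 72 of the 19835 transcripts of the table exceeded. They were chosen by this level and by how little repeated or highly similar sequence their transcripts held, and together they account for 6 of the 19835 transcripts, 2 for each gene. The nearest transcripts to the limit were HNRNPA1P57 with 1028 FPKM above it and ENSG00000203472 with 996 FPKM below it, so none of the 3 genes lay close to 1000 FPKM. HUH7 is an established human hepatocellular carcinoma line, here untreated and grown in medium with fetal bovine serum. Total RNA was depleted of ribosomal RNA and sequenced in 4 strand-specific libraries, all of 1 group, although the labels call the molecule polyA RNA. The libraries were not stated to come from separate cultures, so spreads and p-values cover these libraries only and may be technical.

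A lncRNA is a transcript longer than 200 nt with no known protein product, and most are spliced and polyadenylated like mRNAs. The genome also holds many processed pseudogenes, intronless copies of mRNAs that were reverse transcribed and inserted elsewhere, most often from genes with abundant mRNAs such as those of ribosomal proteins. Where such a copy lands downstream of a promoter it can become an exon of a lncRNA. A short read from the mRNA and one from the copy then differ only at the bases where the copy has diverged.

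The high transcripts of all 3 genes carried such a copy on their sense strand, in the last exon. ENST00000445817.1 of LINC01641 held a copy of the mRNA of RPS18, a protein of the small ribosomal subunit. ENST00000436123.1 of LINC00691 held a copy of NPM1, which encodes nucleophosmin, an abundant nucleolar protein of ribosome assembly. Both transcripts of ENSG00000265091, ENST00000581170.1 and ENST00000579933.1, held a copy of RPL41, the very small basic protein of the large ribosomal subunit. The stretches below show how close the copies were; each pair gives the lncRNA first and the coding sequence after it, 5′ to 3′, and capitals mark the bases that differ.

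LINC01641 nt 1535 to 1624: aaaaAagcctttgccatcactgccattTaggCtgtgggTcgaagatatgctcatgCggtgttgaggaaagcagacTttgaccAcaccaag

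RPS18 coding nt 73 to 162: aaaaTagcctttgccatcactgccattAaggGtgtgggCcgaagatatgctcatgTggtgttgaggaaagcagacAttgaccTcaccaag

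LINC00691 nt 2022 to 2111: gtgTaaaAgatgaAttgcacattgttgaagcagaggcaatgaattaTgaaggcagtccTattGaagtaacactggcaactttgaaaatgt

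NPM1 coding nt 155 to 244: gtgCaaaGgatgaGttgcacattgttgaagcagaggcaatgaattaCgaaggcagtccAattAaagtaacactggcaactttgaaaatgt

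ENSG00000265091 nt 308 to 385: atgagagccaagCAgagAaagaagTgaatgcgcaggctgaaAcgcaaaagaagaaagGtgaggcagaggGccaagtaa

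RPL41 coding nt 1 to 78: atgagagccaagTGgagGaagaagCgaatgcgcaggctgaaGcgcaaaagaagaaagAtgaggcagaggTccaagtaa

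The first and second pairs are the first 90 nt of the longest aligned block without gaps, with 7 and 6 differing bases, and the third pair is the whole coding sequence of RPL41, with 7 differing bases in 78. All sequences come from the GRCh37 genome and the GENCODE release 44 models on it, with LINC01641 on chromosome 1, LINC00691 on chromosome 3 and ENSG00000265091 on chromosome 18. Positions in the lncRNAs are counted from 1 at their 5′ end, and positions in coding sequences from 1 at the first base of the start codon.

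Over their aligned length the copies were 83.9% to 89.8% identical to the mRNA, and 89.8% to 91.6% where gapped columns were left out. In LINC01641 the RPS18 copy spanned nt 1418 to 1956 of 1971, or 27.3% of the transcript, and aligned to nt 2 to 543 of the 549-nt RPS18 mRNA at 89.3% identity with 7 gapped columns. In LINC00691 the NPM1 copy spanned nt 1798 to 2611 of 2964, or 27.5% with only its first 2 bases in exon 3, and aligned to nt 29 to 872 of the 1320-nt NPM1 mRNA at 83.9% identity, or 89.8% where the 56 gapped columns were left out. In ENSG00000265091 the RPL41 copy spanned nt 294 to 607 of the 607-nt ENST00000581170.1, or 51.7%, at 89.8% identity. The same 314 bases ended the other transcript of that gene, ENST00000579933.1, at nt 664 to 977.

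None of the copies kept the whole open reading frame of its source. In LINC01641 the substitution A100T, the RPS18 base first, places a stop at codon 34. In ENSG00000265091 the substitution C25T places a stop at codon 9 of RPL41. In LINC00691 the substitution T2A removes the start codon of NPM1, and the first stop in the aligned codons lies at codon 197. The longest open reading frame from a start codon was 87 codons in the high transcript of LINC01641, 101 codons in that of LINC00691 and 19 codons in that of ENSG00000265091.

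Because identity is uneven along a copy, the mRNAs were cut into all overlapping windows of 25 nt, about the length of an alignment seed. For RPS18, 291 of 525 windows (55.4%) matched the LINC01641 transcript on its sense strand with at most 2 mismatches, and 9.33% matched exactly. For NPM1, 24.3% of 1296 windows matched the LINC00691 transcript in this way, and 3.55% of the 1296 matched exactly. For RPL41, 20.6% of 652 windows matched ENST00000581170.1, and within the coding sequence the share was 72.2%. Outside the copies, 0 windows of the 3 high transcripts came within 2 mismatches of the mRNA, and the median was 11 to 12 mismatches. The transcripts of LINC01641 and LINC00691 without a copy had 0 such windows anywhere.

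**Figure D1:**
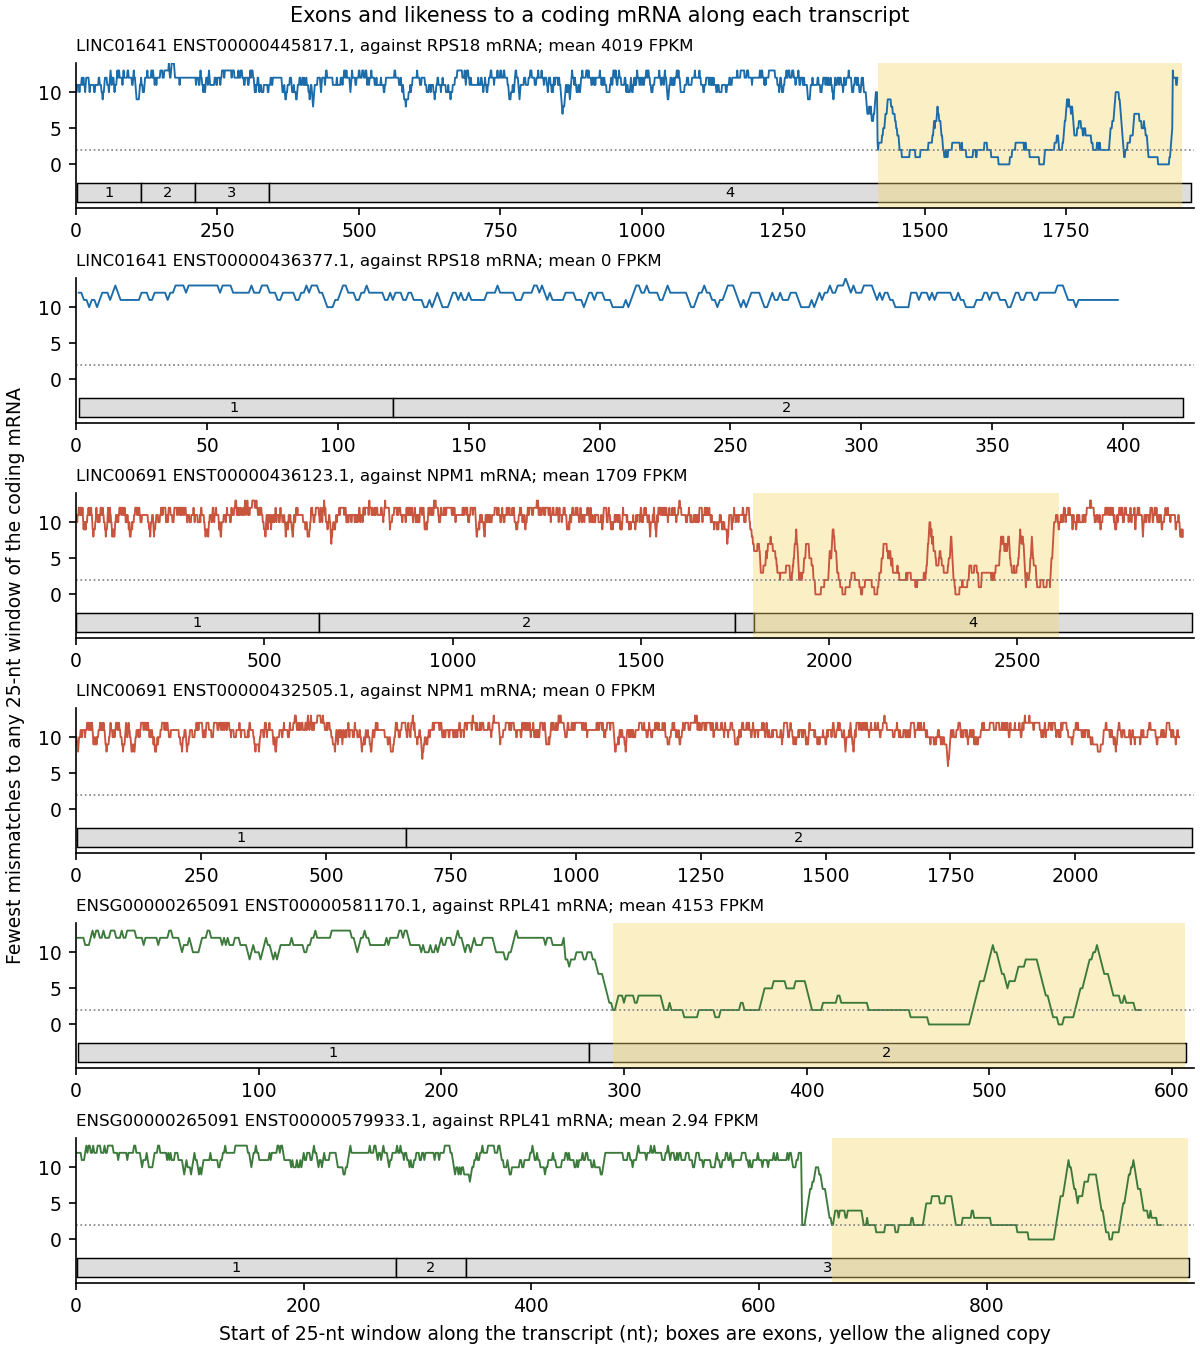
Fewest mismatches between each 25-nt window of a transcript (x axis, nt from its 5′ end) and any 25-nt window of RPS18, NPM1 or RPL41 mRNA (y axis, bases), for the 6 transcripts; numbered boxes are exons, yellow marks the aligned copy and the dotted line marks 2 mismatches. In the 4 transcripts with a copy the line falls to 0 to 2 in parts of the copy and is higher in other parts. In the 2 transcripts listed at 0 FPKM the line never falls below 6.

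The copies went unseen by a search for near-identical sequence. At 95% identity or more over at least 50 nt, 0 matches to another locus of the genome were found for any of the 3 high transcripts, and 1 of the 6 transcripts, ENST00000432505.1 of LINC00691, had such matches over 5.38% of its length. At 90% identity over at least 50 nt, 5 of the 6 transcripts shared sequence with other loci, namely 20.6% of the high LINC01641 transcript, 18.1% of that of LINC00691 and 54.2% of that of ENSG00000265091. The transcript without such a match was ENST00000436377.1 of LINC01641. The description of these genes as holding little shared sequence therefore applied to near-identical sequence only. Exactly repeated sequence was low. In the high transcripts of LINC01641, LINC00691 and ENSG00000265091, 24-mers found 10 or more times in the genome made up 0%, 2.96% and 2.40%. Diverged repeats escape such an exact count. At 80% identity over at least 50 nt, matches to other loci covered 46.1%, 52.8% and 54.2% of the same transcripts, with 418, 8938 and 25 matches. These matches were not separated from those of the coding-gene copies, and for ENSG00000265091 the share was the same as at 90% identity.

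All 6 transcripts were spliced, and the high ones of LINC01641 and LINC00691 were long, at 1971 and 2964 nt. LINC01641 lies on the plus strand at chr1:227581255-227618736, and its high transcript has 4 exons of 114, 96, 130 and 1631 nt. Its other transcript, ENST00000436377.1, is 422 nt long, begins inside the third exon of the high transcript and ends in an exon of its own, upstream of the RPS18 copy. LINC00691 lies on the minus strand at chr3:24137760-24144729, and its high transcript has 4 exons of 644, 1106, 49 and 1165 nt. Its other transcript, ENST00000432505.1, has 2 exons and 2232 nt and shares 1750 nt with the high one, all upstream of the NPM1 copy. ENSG00000265091 lies on the minus strand at chr18:5232875-5238525, where ENST00000581170.1 has exons of 280 and 327 nt and ENST00000579933.1 has 3 exons and 977 nt. All introns of the 6 transcripts began with GT and ended with AG, and the median of 16535 matched lncRNA transcripts was 655 nt and 3 exons.

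The high transcript of LINC01641 ended shortly after the polyadenylation hexamer AATAAA, which lies inside the RPS18 copy and is in capitals below. The high transcript of LINC00691 also held AATAAA in its last 50 nt. Neither this hexamer nor ATTAAA lay in the last 50 nt of the ENSG00000265091 transcripts.

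LINC01641 last 50 nt: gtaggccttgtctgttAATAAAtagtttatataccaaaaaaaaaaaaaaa

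One of these hexamers was present in the last 50 nt of 42.6% of lncRNA transcripts. The 15 terminal A bases of LINC01641 are in the genome itself and directly follow the RPS18 copy, as the tail of a processed pseudogene does. GENCODE annotates the processed pseudogene ENSG00000242757 over 451 nt of that exon on the same strand, and NPM1P23, a transcribed processed pseudogene, over 849 nt of the last exon of LINC00691. Over the RPL41 copy in ENSG00000265091 it annotates none.

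In LINC01641 and LINC00691 the transcript with the copy was the high one, which was chosen by its level, and the transcript without it was listed at 0, as were 39.4% of all transcripts of the table. ENST00000445817.1 of LINC01641 was measured at 3749, 4016, 3559 and 4753 FPKM in replicates 1 to 4, a mean of 4019 ± 524 FPKM (SD, n = 4). ENST00000436377.1, the transcript of LINC01641 without the RPS18 copy, was listed at 0 FPKM in all 4 libraries. The high transcript thus held 100% of the summed FPKM of LINC01641 in every library.

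ENST00000436123.1 of LINC00691 was measured at 1632, 1680, 1566 and 1960 FPKM, a mean of 1709 ± 173 FPKM (SD, n = 4). ENST00000432505.1, the transcript of LINC00691 without the NPM1 copy, was again listed at 0 FPKM in all 4 libraries. The pair shares 59.0% of the high transcript, so the 0 rests on how the shared part was assigned as well as on the 482 nt that only ENST00000432505.1 has.

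ENST00000581170.1 of ENSG00000265091 was measured at 3508, 3558, 3822 and 5725 FPKM, a mean of 4153 ± 1057 FPKM (SD, n = 4). ENST00000579933.1 was measured at 4.80, 3.39, 0.43 and 3.12 FPKM, a mean of 2.94 ± 1.83 FPKM (SD, n = 4), and held less than 0.2% of the gene's summed FPKM in every library. Here both transcripts carry the copy, and all 607 bases of the high transcript are also in the low one, which adds 370 nt of its own. In these models only the junction between the exons sets the high transcript apart, so the division between the pair was an estimate of RSEM (the program that assigned fragments to transcripts).

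**Figure D2:**
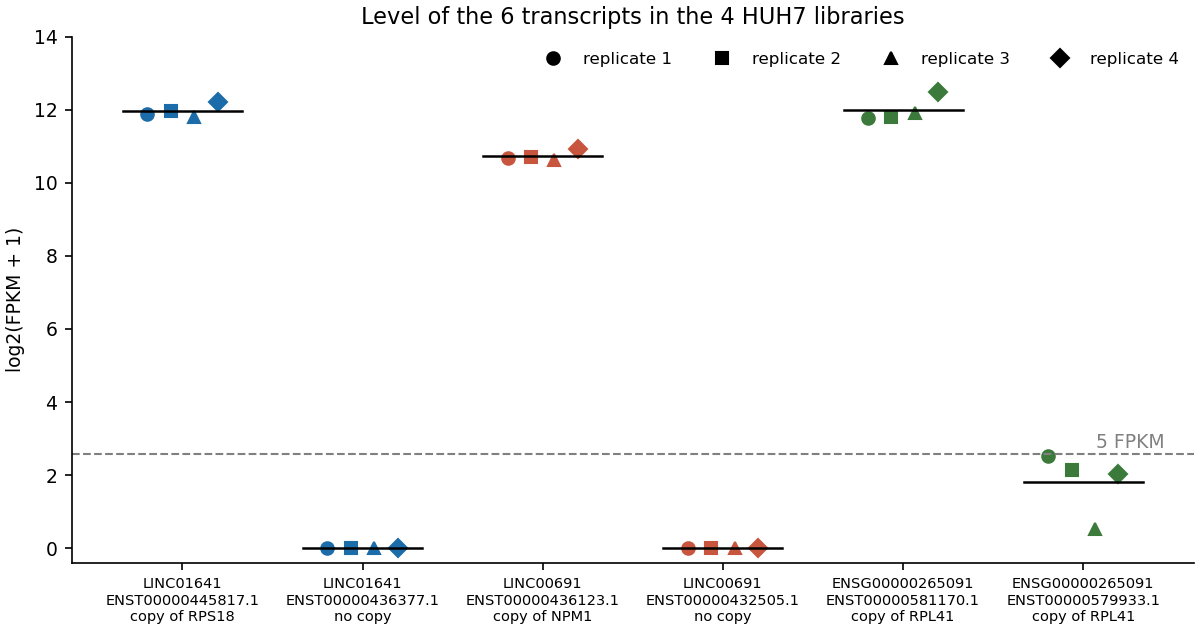
Level of each of the 6 transcripts as log2(FPKM + 1) (y axis) in the 4 HUH7 libraries (symbols), grouped by gene (colours) along the x axis; horizontal lines are means and the dashed line is 5 FPKM. The 3 high transcripts lie near 4019, 1709 and 4153 FPKM, the transcripts without a copy lie at 0, and ENST00000579933.1 lies below 5 FPKM although it carries the RPL41 copy.

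The study kept transcripts above 5 FPKM, and this limit was tested for ENST00000579933.1, whose level was not used to choose the gene. Its log2(FPKM + 1) gave a difference of -0.78 from that of 5 FPKM (SE 0.34), with an adjusted p of 0.0578 in the moderated test of limma, so it was not placed on either side. Leaving out replicate 1 gave an adjusted p of 0.0322, within a range of 0.0322 to 0.273 by limma over the fits without 1 replicate, and the level was under 5 FPKM in 4 of 4 libraries. Of 11435 transcripts tested in this way, 41.9% were called above and 43.3% below 5 FPKM. The levels of the 3 high transcripts were used to choose them and were not tested, and those at 0 FPKM fell under the minimum mean of 0.1 FPKM for testing.

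Among the high transcripts the order was partly resolved. LINC01641 exceeded LINC00691 in 4 of 4 libraries, by 2.35-fold on average, with a log2 ratio of 1.23 ± 0.04 (SD, n = 4). ENSG00000265091 exceeded LINC00691 in 4 of 4 libraries by 2.39-fold, with a log2 ratio of 1.26 ± 0.21 (SD, n = 4). Between ENSG00000265091 and LINC01641 the log2 ratio was 0.03 ± 0.20 (SD, n = 4), with ENSG00000265091 higher in 2 of 4 libraries, so these neighbours in the order did not differ beyond their spread. By mean FPKM they were eighth, ninth and, for LINC00691, 33rd of the 19835 transcripts.

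All 3 high transcripts had their highest value in replicate 4. Its level over the mean of the other libraries was 1.26-fold for LINC01641, 1.21-fold for LINC00691 and 1.58-fold for ENSG00000265091. Replicate 4 had the lowest size factor of the 4 libraries (0.925, against 0.968 to 1.118 in the others, by the median of ratios), so scaling did not lower its values. Of the 19 other transcripts within 2-fold of LINC01641 in mean level, 11 (57.9%) were also highest in replicate 4, and of the 76 within 2-fold of LINC00691 the number was 20 (26.3%). For LINC01641 and LINC00691, replicates 2 and 4, titled with the letter H, both exceeded replicates 1 and 3, titled with L. For ENSG00000265091 replicate 2 was below replicate 3, and a difference between H and L libraries was not tested.

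The spread between libraries was ordinary for LINC01641 and LINC00691 and wider for ENSG00000265091. The coefficient of variation was 13.0% for LINC01641, against a median of 11.03% over the 19 transcripts of like level, and 10.1% for LINC00691, against a median of 11.4% over 76. For ENSG00000265091 it was 25.4%, above that of 84.2% of the 19 transcripts of like level, and without replicate 4 the mean was 3629 FPKM. About 36500 fragments per library were estimated behind the LINC01641 value and 23600 behind that of LINC00691, where counting error alone would give 0.523% and 0.650%. For ENST00000579933.1 the estimate was 12.5 fragments, or a counting error of 28.2%, below its spread of 62.2%. How far counting or the division of shared fragments made up that spread was not tested.

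Concentration in a single transcript was common in the table and less so in a list of well-known lncRNA genes, most of which had more transcripts. Over 1491 genes with 2 or more transcripts and more than 5 FPKM, the highest transcript held a median of 86.5% of the gene's FPKM, and 26.6% of these genes had more than 99% in it, as the 3 genes did. In the list of 22 well-known lncRNA genes, 20 were measured and 19 had 2 or more transcripts, with a median share of 64.9% and 2 genes above 99%. Genes were not matched by number of transcripts. NEAT1, with 2 transcripts as in the 3 genes, had a share of 100%. With many transcripts, GAS5 (29) had 13.4% and MEG3 (27) had 99.4%. In summed FPKM, 6 genes of this list exceeded the 1709 FPKM of LINC00691.

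The transcripts nearest in level over the 4 libraries, by Euclidean distance of log2(FPKM + 1), differed in kind. For LINC01641 they were ENST00000544386.1, which has no match in the annotation, at a distance of 0.27, the high transcript of ENSG00000265091 at 0.35, and ENST00000425653.1 of DANCR at 0.43. For ENSG00000265091 they were LINC01641 at 0.35, ENST00000544386.1 at 0.42 and DANCR at 0.60. For LINC00691 they were ENST00000454312.1 of ENSG00000227400 at 0.22, ENST00000437681.1 of SNHG3, a snoRNA host gene, at 0.24, and the unmatched ENST00000400172.3 at 0.27. The transcript of ENSG00000227400, at 1647 ± 130 FPKM (SD, n = 4), also overlapped a same-strand processed pseudogene, TUBAP13, over 342 nt.

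Copies of a nearly whole coding sequence were rare among the transcripts of the table and less rare at the top of it. A sense copy of at least 80% of a coding sequence at 80% identity or more was found in 63 of 18221 matched transcripts over 200 nt (0.346%), and in 6 of the 59 above 1000 FPKM (10.2%). Under the looser limit of 80% identity over 60 nt, a sense match to a coding sequence was common, in 22.9% of all transcripts and 57.6% of those above 1000 FPKM, with the highest share, 76.2%, between 100 and 1000 FPKM. The 6 near-whole copies above 1000 FPKM were the high transcripts of the 3 genes and 1 transcript each of AP006222.2 (a copy of RPL23A, 3075 FPKM), TMA7B (TMA7, 1385 FPKM) and RPS10P7 (RPS10, 1379 FPKM). Because the 3 genes were chosen by level, the other genes are the better description, with 59 such transcripts, a median of 3.07 FPKM and 3 above 1000 FPKM (5.08%), against 0.324% of all transcripts. Of these 59 transcripts of other genes, 45.8% were above 5 FPKM, against 27.6% of all transcripts. Under the looser limit, the share was 67.5% of the 4156 transcripts that matched only coding sequences other than those of ribosomal proteins. The search did not separate processed copies from other matches, such as that of CXorf49B to CXorf49. Not every transcript with such a copy was detected, since 21 of the 63 were listed at 0, against 7193 of all 18221.

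Under the looser limit, copies of ribosomal protein coding sequence lay in 12 transcripts, of which 10 were above 5 FPKM and 4 above 1000 FPKM, with a median of 334 FPKM. The median was 17.6 FPKM over the 4156 transcripts that matched only other coding sequences, 0.07 FPKM over those with no match and 0.3225 FPKM over all transcripts. Without ENSG00000265091 and LINC01641 there were 9 transcripts with a ribosomal protein copy, with a median of 247 FPKM. Exons overlapped a same-strand processed pseudogene in 141 transcripts (0.774%), and in 7 of the 59 above 1000 FPKM (11.9%), 3 of which belong to genes annotated as pseudogenes themselves. Among the 18221 transcripts, RPS18, NPM1 and RPL41 coding sequence was copied in no gene other than LINC01641, LINC00691 and ENSG00000265091. The mRNAs of RPS18, NPM1 and RPL41 were not part of the reference to which these reads were aligned, and whether their fragments contributed to the 3 high values was not tested, since coding transcripts were not analysed here.

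**Figure D3:**
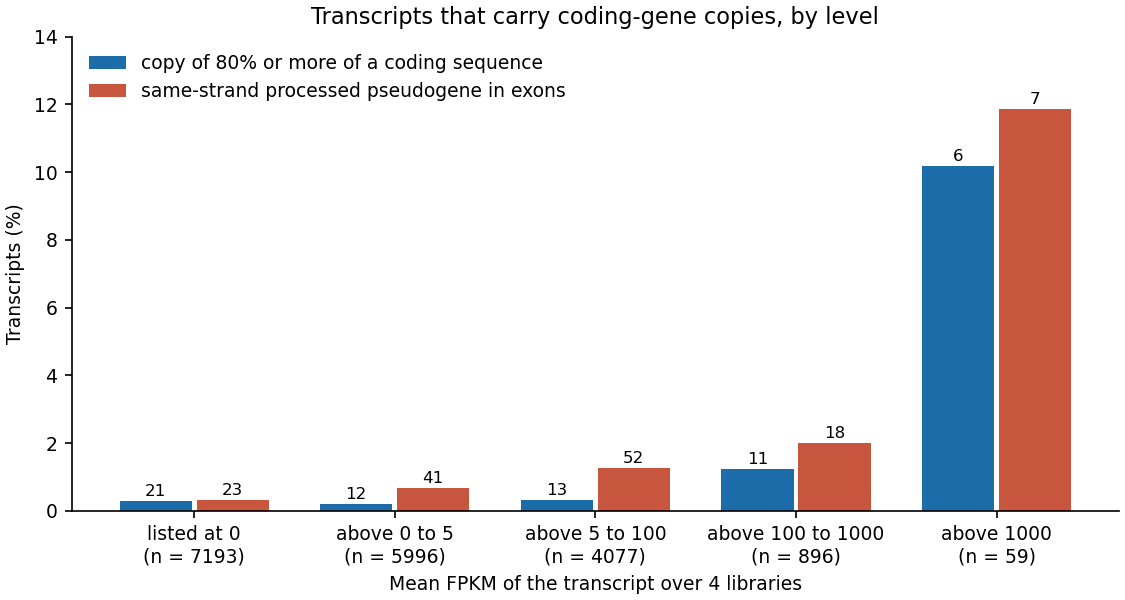
Percentage of matched transcripts over 200 nt (y axis) that carry a sense copy of at least 80% of a coding sequence (blue) or overlap a same-strand processed pseudogene in their exons (red), by mean FPKM (x axis); numbers on the bars are transcripts. The share is highest above 1000 FPKM, with 6 and 7 of 59 transcripts, a group that includes the high transcripts of the 3 genes chosen for their level.

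The other transcripts of the table around the 3 genes were less abundant than the high transcripts. The high transcripts were chosen by level, and only 0.363% of all transcripts exceeded 1000 FPKM, so this contrast follows from the choice. LINC01641 lies between CDC42BPA, a kinase of the cytoskeleton, at 75.1 kb and ZNF678, a zinc finger gene, at 132.5 kb. LINC00691 lies 13.9 kb from THRB, the thyroid hormone receptor beta gene, and 115.7 kb from NR1D2, a nuclear receptor of the circadian clock. ENSG00000265091 lies 35.4 kb from AKAIN1 and 50.5 kb from ZBTB14, a zinc finger transcription factor. Coding transcripts of these genes were not in the non-coding table.

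Within 1 Mb of the 3 genes the table held 43 transcripts of 25 other genes, of which 23 were listed at 0 in all libraries and the highest had a mean of 66.4 FPKM. Of the 19 that could be tested, 9 (47.4%) were above 5 FPKM, against the 41.9% of all tested transcripts, and 6 were below it, by the moderated test of limma. The pooled share above 5 FPKM was thus near that of the whole table, but it differed between the 3 genes. It was 7 of 11 tested transcripts (63.6%) near ENSG00000265091, against 1 of 4 (25.0%) near each of LINC01641 and LINC00691. LINC00667, which overlaps ENSG00000265091, gave 5 of those 7, so these are not separate genes. The 6 of 19 below 5 FPKM compare with 43.3% of all tested transcripts. Near LINC01641, ITPKB-AS1, 717 kb away, was the highest with 64.2 ± 11.8 FPKM (SD, n = 4), and ENSG00000231563 had 7.38 ± 2.32 FPKM and was not placed. Near LINC00691, THRB-IT1, 352 kb away on the same strand, was above 5 FPKM with 44.6 ± 11.7 FPKM (SD, n = 4).

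ENSG00000265091 was the gene with close company, and it is intergenic only in part. Its first exon of 280 nt lies wholly in exons of LINC00526 on the same strand and of LINC00667 on the opposite strand. LINC00526 (ENST00000581067.1) was measured at 56.2, 51.0, 48.2 and 59.7 FPKM, a mean of 53.8 ± 5.1 FPKM (SD, n = 4). LINC00667 had 6 transcripts, 5 of them above 5 FPKM with means of 26.4 to 66.4 FPKM. In these models the first exon of ENSG00000265091 is therefore shared by transcripts at 4153, 53.8 and 2.94 FPKM on 1 strand. The transcript at 4153 FPKM, ENST00000581170.1, matched a later version, so the exons counted for it may differ. Because no source used here states whether strand was used in counting, reads of LINC00667 cannot be told apart from reads of these transcripts. Of the other neighbours, LINC01892, 134 kb away, was above 5 FPKM with 30.7 ± 3.1 FPKM (SD, n = 4). Inside an intron of LINC01641, the processed pseudogene NUCKS1P1 lies on the opposite strand and shares no exonic base with it.

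**Figure D4:**
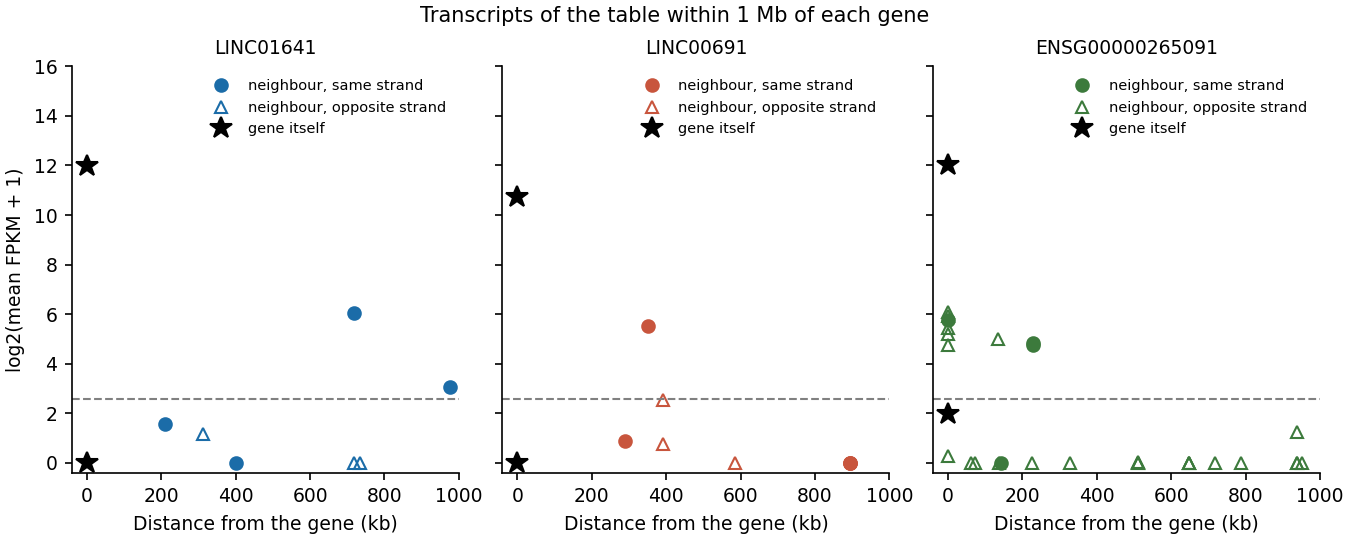
Mean level over the 4 libraries as log2(FPKM + 1) (y axis) of transcripts of other genes within 1 Mb, by distance from LINC01641, LINC00691 and ENSG00000265091 (x axis, kb); filled circles are on the same strand, open triangles on the opposite strand, stars are the transcripts of the gene itself and the dashed line is 5 FPKM. No neighbour exceeds 66.4 FPKM, and the high transcripts, which were chosen by their level, lie at 1709 to 4153 FPKM.

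Across the series, summed FPKM were 1755972 to 1965229 per library, and the low values fell on steps from which 4500000 to 5060000 fragments per library were estimated. Of the liver lncRNA markers 5 of 9 measured were above 5 FPKM, led by HULC with 693 ± 65 FPKM (SD, n = 4). The other liver genes were LINC01093 at 0, FAM99A at 0.24, LINC00844 at 0.40 and FAM99B at 0.41 FPKM. Markers of other tissues were also detected, with 3 of 5 neural genes above 5 FPKM, led by DLX6-AS1 with 309 FPKM. Of the blood genes 3 of 5 were above 5 FPKM, led by PCED1B-AS1 with 101 FPKM, the other 2 being MIR155HG at 0 and MIR142HG at 0.035 FPKM. Of the muscle and stroma genes 2 of 3 measured were above 5 FPKM, led by MIR503HG with 54.1 FPKM.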

How the data were processed

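The authors aligned reads of 4 HUH7 libraries with Bowtie 1.01 to Ensembl 68 non-coding transcripts on hg19 (GRCh37) and deposited FPKM made with RSEM 1.2.3. Coding transcripts were not in that reference, and no scaling between libraries is described. The letters H and L in titles were not used as a variable. Transcript identifiers were matched to GENCODE release 44 on GRCh37 (18373 of 19835, of which 11445 had the same version). ENST00000581170.1 matched a later version, 5, so its structure may differ from the one counted.

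Log2(FPKM + 1) was tested against log2(5 + 1) with limma 3.58.1 (R 4.3.3, two-sided, mean-variance trend, Benjamini-Hochberg adjustment, threshold 0.05) for transcripts whose mean reached 0.1 FPKM. Copies were found with blastn 2.17.0 on the sense strand (80% identity, 60 nt) and aligned with Biopython 1.88. Overlaps used bedtools 2.31.1. Fragments were estimated from steps in low FPKM with transcript length less 80 nt. Of the low values, 68.9% to 69.5% came within 0.05 of a whole fragment. Deposited FPKM hold no counts, so counting errors rest on this estimate.

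The text names all 6 transcripts, the nearest coding and overlapped genes, neighbours within 1 Mb above 5 FPKM, the transcripts nearest in level and the loci of longest shared sequence. Members, lists and rules were chosen with earlier results of these data known.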

Additional observations from a re-analysis of the deposited data

Results flagged for a closer look

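Of 21 transcripts named here with non-zero values, 3 had 1 library far from the other 3, by the gap to the nearest value relative to the whole range (Dixon's 95% limit), and chance gives about 1 in 20. ENST00000581170.1 of ENSG00000265091 had 5725 FPKM in replicate 4, against 3508 to 3822 FPKM in the others, a gap of 0.859 of its range. ENST00000580684.1 of LINC00667, whose exon overlaps that gene on the opposite strand, had 70.8 FPKM in replicate 2, against 64.8 to 65.2 FPKM in the others. ENST00000583985.1 of LINC01892 had 35.2 FPKM in replicate 2, against 28.6 to 29.8 FPKM in the others.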

How the results depend on the processing

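The level of ENST00000579933.1 was the call that depended on the settings. Against a limit of 1 FPKM its log2 difference was 0.81, the reverse direction, and against 10 FPKM it was -1.65 with an adjusted p of 0.00129 by limma, both by construction of another limit. Leaving out 1 replicate gave log2 differences of -1.02 (without replicate 1) to -0.35 (without replicate 3). A minimum mean of 1 FPKM for testing left 1849 transcripts called below 5 FPKM, and a limit of 1 FPKM gave 1824, against 4953, while among the neighbours within 1 Mb these settings gave 3 and 1, against 6, and a window of 250 kb gave 2. Transcripts sharing sequence with other loci numbered 5 of 6 at 90% identity and 6 of 6 at 80% identity, the 80% limit and the searches for coding copies being chosen after the data were seen, against 1 of 6 at 95%. The remaining results kept their direction and call, including the mean FPKM and transcript shares of the 3 genes under scaling and without any 1 replicate. Same-version transcripts alone gave no share for ENSG00000265091, whose high transcript matched a later version. No paired analysis was possible because there was 1 group.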

Other observations

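The neighbour ENSG00000266268, 228 kb from ENSG00000265091, had its level on different transcripts in different libraries. Its transcript ENST00000584204.1 was measured at 56.1, 0, 54.8 and 0 FPKM in replicates 1 to 4, and ENST00000585028.1 at 0, 55.0, 0 and 50.4 FPKM. In each library only 1 of the transcripts was above 0, and the sum was 54.1 ± 2.5 FPKM (SD, n = 4). The titles of replicates 1 and 3 carry the letter L and those of replicates 2 and 4 the letter H, which the submitters describe as internal names. The switch followed these letters. A difference between L and H libraries therefore cannot be told apart from a difference in how RSEM assigned the fragments, and neither was tested.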
